A study of Mus musculus with 6 samples.

Results

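The 10 genes described here encode integrin subunits, the chains of the cell surface receptors that tie a cell to its surrounding matrix. They are the alpha chain genes Itga1, Itga2, Itga3, Itga5, Itga6, Itga7, Itga9 and Itgav and the beta chain genes Itgb1 and Itgb3. They were chosen by symbol from a table of 18956 genes, where each symbol occurred once, and the table's own gene descriptions name all of them as integrins. The table comes from bulk RNA sequencing of mouse lung endothelial cells in 6 libraries. The labels call 3 of them WT without Cre (Cre-neg), here WT 1 to 3, and 3 of them CSE-KO with Cre (Cre-pos), here CSE-KO 1 to 3. CSE is cystathionine gamma-lyase, an enzyme of cysteine and hydrogen sulfide formation that the gene Cth encodes. Going by its title, the study links uptake and breakdown of cystine to acetylated histones and to vessel growth and repair, and the comparison here is of the libraries labelled CSE-KO with those labelled WT. The promoter that drives Cre, the deleted part of Cth, any treatment, the age and sex of the mice, and whether the 3 libraries of a group came from separate mice or cultures are not stated in the labels used here, so the p-values measure only the spread between libraries, which may be technical.

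An integrin is a pair of an alpha and a beta chain that both cross the membrane. The alpha chain largely sets the matrix ligand. Paired with beta1, alpha1 and alpha2 bind collagens, alpha3, alpha6 and alpha7 bind laminins, alpha5 binds the RGD motif of fibronectin, and alpha9 binds tenascin-C and the extra domain A of fibronectin. The alphav chain pairs with beta3 and other beta chains and binds vitronectin, fibronectin and latent TGF-beta. Inside the cell, talin and kindlin bind the beta tail and switch the receptor on, and focal adhesion kinases and scaffolds link it to actin. In endothelium, alpha5/beta1 and alphav/beta3 are known for their part in vessel growth, the laminin receptors for anchoring cells to the basement membrane, and alpha9/beta1 for the valves of lymphatic vessels.

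Values are read as normalized counts, that is read counts scaled per library and rounded. Library totals lay between 5698922 and 6052275. Cth itself had higher values under the CSE-KO label (29, 27 and 26 in WT 1 to 3 against 49, 43 and 63 in CSE-KO 1 to 3), which goes against the label, though a value summed over the gene does not check a deletion of part of it. WT and CSE-KO are used below as label names only. The endothelial markers Pecam1, Cdh5, Kdr, Tek, Tie1, Emcn and Erg were present in every library, with a summed value of 12920 to 13190 in WT and 9217 to 9554 in CSE-KO, and all but Emcn fell. The mean squared difference between a pair of libraries per gene, divided by the summed value, is 1 for pure counting noise. Over the 13750 genes that passed the filter on low values given below, it was 0.709 to 0.757 between WT libraries. It was 0.860 between CSE-KO 2 and 3, and 1.63 and 1.92 between CSE-KO 1 and these. In the 1947 of these genes under 0.01 per exonic base it was 0.933 to 0.990 between WT libraries, 1.06 between CSE-KO 2 and 3, and 1.11 and 1.27 for CSE-KO 1. There the WT libraries and CSE-KO 2 and 3 thus differed by about counting noise. Means are given over n = 3 libraries, and the 10 genes were also fitted with WT 1 to 3, with CSE-KO 2 and 3, and with both sets counted as 1 sample.

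Of the 10 subunit genes, all passed the filter on low values (at least 10 in at least 3 libraries). In the limma fit over 13750 genes, 3 were higher and 5 lower in CSE-KO at a Benjamini-Hochberg adjusted p under 0.05, and 2 did not pass. Over all tested genes 77.4% were called, 38.3% higher and 39.0% lower, so 8 of 10 is close to the background. Of these, 2 rose (Itga7 and Itga2) and 2 fell (Itga9 and Itga1) by 2-fold or more, and 9.93% and 12.3% of all tested genes did so. The groups did not overlap in 8 of the 10 genes, against 80.4% of all tested genes. The median log2 fold change was −0.19 for the 10 genes and 0.00139 for all tested genes, and the median size of the change was 0.47 and 0.43. The 10 genes thus ranged from a 7.18-fold fall in Itga9 to a 6.93-fold rise in Itga7. In the same fit the 6 genes with the highest level per exonic length in WT changed by at most 1.46-fold (Itgb3, a log2 fold change of −0.55, or −0.71 when corrected for reads lost at shared starts), and the 4 genes with at least a 2-fold change were the 4 with the lowest level per exonic length in WT. Fold changes are on the scale of log2(value + 0.5) and understate the change of low genes.

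**Figure D1:**
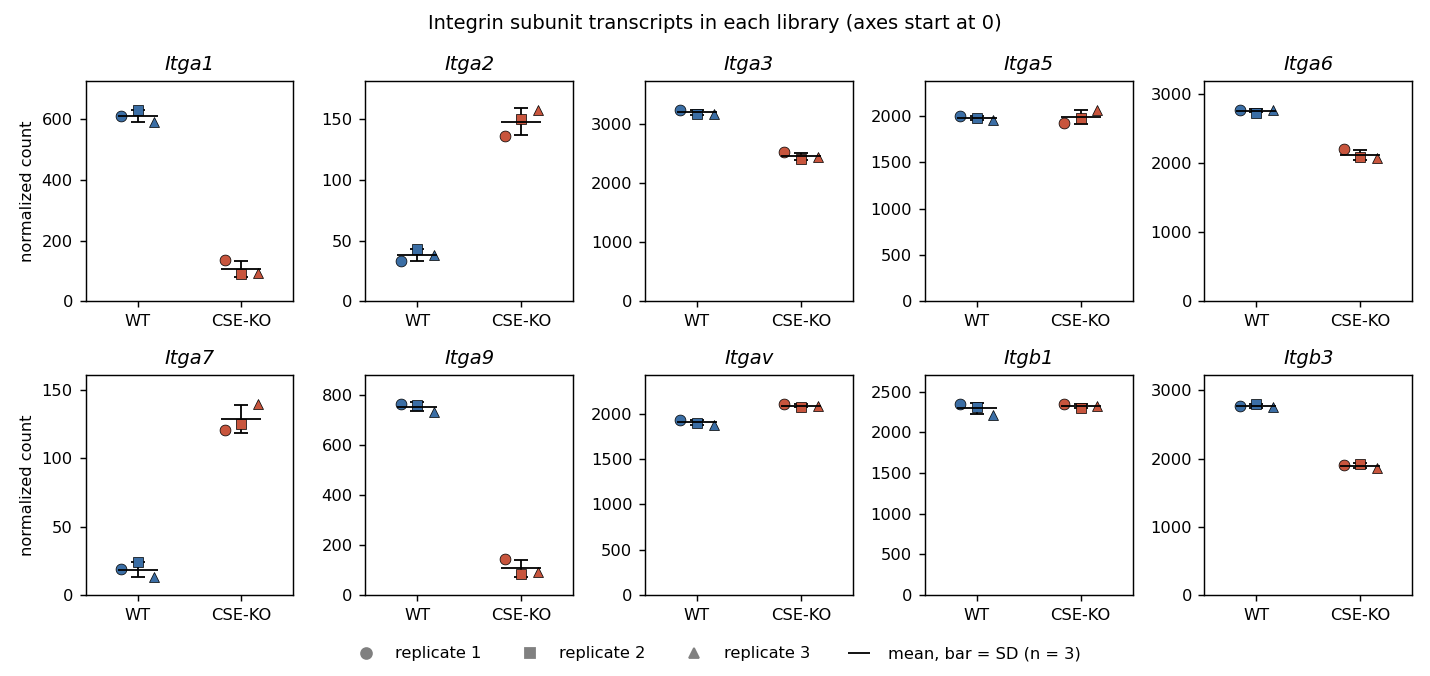
Normalized counts (vertical axes, each starting at 0) of the 10 integrin subunit genes in the 3 WT and 3 CSE-KO libraries. Symbols are libraries by replicate number, and lines and bars give the mean and SD (n = 3). The groups overlap in Itga5 and Itgb1 and are apart in the other 8 genes.

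Itgb1, whose product is the shared partner of most alpha chains, did not pass the test, and Itgb3 fell. Itgb1 (ENSMUSG00000025809, mm10 chromosome 8, 128685654 to 128733200, plus strand) was at 2353, 2311 and 2216 in WT 1 to 3 against 2349, 2300 and 2328 in CSE-KO 1 to 3. The CSE-KO values lay inside the WT range. The log2 fold change was 0.02, with a 95% interval from −0.03 to 0.07 (adjusted p = 0.46). With library totals made equal the value was 0.09 (adjusted p = 0.0031) and with upper-quartile scaling 0.07 (adjusted p = 0.022), so under those scalings the gene was called higher. These scalings move the median of all tested genes to 0.075 and 0.0493, and over all its alternatives the adjusted p of Itgb1 ran from 0.0031 to 1. Itgb3 (ENSMUSG00000020689, chromosome 11, 104608000 to 104670476, plus strand), which pairs with alphav, was at 2763, 2805 and 2750 against 1912, 1919 and 1856. Each CSE-KO library was below each WT library, and the 3 values of a group lay close together. The fall was 1.46-fold (log2 fold change −0.55, SE 0.02, adjusted p = 2.5e-09), from 2773 ± 28.7 to 1896 ± 34.5 (SD).

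Itga5 and Itgav, the RGD-binding alpha chains among the 10 genes, moved little. Itga5 (ENSMUSG00000000555, chromosome 15, 103344286 to 103366763, minus strand), the fibronectin receptor chain, was at 1995, 1979 and 1957 in WT against 1924, 1978 and 2067 in CSE-KO. The WT values fell within the CSE-KO range, and the log2 fold change was 0.01, with a 95% interval from −0.05 to 0.07 (adjusted p = 0.78). With equal totals it was 0.08 and passed (adjusted p = 0.013, in a range of 0.013 to 1 over its alternatives). Itgav (ENSMUSG00000027087, chromosome 2, 83724397 to 83806916, plus strand) was at 1936, 1895 and 1880 against 2112, 2077 and 2081. It rose 1.10-fold (log2 fold change 0.13, SE 0.02, adjusted p = 1.2e-04), a change too small to pass a test against a fold of 1.2. Itgav and its partner Itgb3 therefore moved in opposite directions, both with groups that did not overlap.

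The laminin receptor chains divided into a pair of abundant chains that fell by about the same amount and a rare chain that rose. Itga3 (ENSMUSG00000001507, chromosome 11, 95044474 to 95076801, minus strand) was at 3241, 3177 and 3174 in WT against 2521, 2400 and 2438 in CSE-KO. Itga6 (ENSMUSG00000027111, chromosome 2, 71745616 to 71858416, plus strand) was at 2777, 2736 and 2775 against 2210, 2087 and 2074. In both genes CSE-KO 1 lay nearest to WT, yet below every WT library. Both fell 1.30-fold, with a log2 fold change of −0.38 (SE 0.02, adjusted p = 4.3e-08) for Itga3 and −0.38 (SE 0.03, adjusted p = 1.4e-07) for Itga6. Itga7 (ENSMUSG00000025348, chromosome 10, 128933818 to 128958282, plus strand), the laminin receptor chain best known from muscle, was at 19, 24 and 13 against 121, 125 and 140. Its 3 CSE-KO values were all at least 121 and its WT values at most 24. The rise was 6.93-fold (log2 fold change 2.79, SE 0.20, adjusted p = 2.6e-07), rank 337 among the rises of 13750 genes. Mettl7b, on the opposite strand, shares 9 exonic bases with Itga7 and rose by a log2 fold change of 2.77 (SE 0.31), from 3.33 ± 0.577 to 25.7 ± 4.62. Mettl7b was under 10 in every WT library, so it passed the filter only through CSE-KO and could be called only as a rise. The libraries were made with a stranded kit, but whether strand was used in counting is not given in the sources used here.

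The collagen receptor chains moved in opposite directions. Itga1 (ENSMUSG00000042284, chromosome 13, 114953096 to 115101964, minus strand) was at 610, 632 and 591 in WT against 136, 89 and 95 in CSE-KO. CSE-KO 1 lay above the other CSE-KO libraries and far below WT. The fall was 5.81-fold (log2 fold change −2.54, SE 0.16, adjusted p = 1.3e-05). Itga2 (ENSMUSG00000015533, chromosome 13, 114833081 to 114932100, minus strand) was at 33, 43 and 38 against 136, 150 and 158. Here CSE-KO 1 was the lowest of the CSE-KO libraries and above every WT library. The rise was 3.87-fold (log2 fold change 1.95, SE 0.13, adjusted p = 1.1e-07). In WT the value of Itga1 per kilobase of exon was 32.9 ± 1.10 and that of Itga2 5.33 ± 0.701, while in CSE-KO it was 5.74 ± 1.38 for Itga1 and 20.7 ± 1.56 for Itga2, so their order turned. The summed level of both per kilobase was 38.2 ± 1.59 in WT and 26.5 ± 0.728 in CSE-KO.

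Itga1 and Itga2 are neighbours on mm10 chromosome 13. They lie on the same strand with 20995 bases between them, and no other gene of the table lies in that gap. Pelo, a ribosome rescue factor gene within Itga1 on the same strand that shares no exonic base with it, rose from 114 ± 1.00 to 159 ± 14.2 (log2 fold change 0.47, SE 0.09). The 250 bases before the RefSeq start of each gene are shown because these adjacent genes changed in opposite directions. They come from the RefSeq promoter table for GRCm38.p6, which is mm10, are written 5′ to 3′ on the minus strand, and lie at chr13:115101965-115102214 for Itga1 and chr13:114932101-114932350 for Itga2. Capitals mark matches of CACCC or its reverse complement GGGTG, the short motif that KLF factors bind.
Itga1: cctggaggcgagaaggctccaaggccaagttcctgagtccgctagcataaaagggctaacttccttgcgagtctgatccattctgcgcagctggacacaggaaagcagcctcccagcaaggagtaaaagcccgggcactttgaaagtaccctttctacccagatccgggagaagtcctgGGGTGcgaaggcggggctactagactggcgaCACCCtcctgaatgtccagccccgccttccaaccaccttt
Itga2: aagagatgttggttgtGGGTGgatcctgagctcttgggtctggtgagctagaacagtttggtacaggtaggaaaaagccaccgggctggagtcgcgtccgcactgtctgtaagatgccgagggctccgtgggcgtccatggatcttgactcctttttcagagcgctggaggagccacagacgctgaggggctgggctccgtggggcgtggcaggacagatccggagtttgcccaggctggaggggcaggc
The CACCC motif occurred 2 times before Itga1 and 1 time before Itga2, and 52% of all 32851 windows of this length in the table held it on either strand. Neither window held TGANTCA (AP-1, 6.75% of windows), GGGCGG (GC box, 32.7%), CACGTG (E-box, 6.02%) or CCGGAA (ETS, 12%) on either strand. A match of letters is a description and does not show that a factor binds. The windows held 57.6% and 60.8% G and C, and the median window held 52.4%.

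Itga9, the chain of the tenascin-C receptor, had the largest fall of the 10 genes. Itga9 (ENSMUSG00000039115, chromosome 9, 118606690 to 118901003, plus strand) was at 764, 759 and 731 in WT against 146, 85 and 91 in CSE-KO. CSE-KO 1 stood above CSE-KO 2 and 3, as in Itga1. The fall was 7.18-fold (log2 fold change −2.84, SE 0.23, adjusted p = 1.6e-04), rank 214 among the falls of 13750 genes. The log2 fold change was −3.09 without CSE-KO 1. With WT 1 to 3 and CSE-KO 2 and 3 each counted as 1 sample, it was −2.72 and no longer passed (adjusted p = 0.059, in a range of 2.2e-14 to 0.059 over its alternatives).

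Markers of lymphatic endothelium moved with Itga9 and Itga1. Beside the counts given here, 38.3% of all tested genes were called higher and 39.0% lower. Of 5 tested lymphatic markers 4 fell, and their summed value was 12284 to 12483 in the WT libraries and 4789 to 6285 in the CSE-KO libraries. Prox1, the transcription factor that sets lymphatic fate, was at 2786, 2773 and 2805 in WT against 1085, 707 and 703 in CSE-KO, with CSE-KO 1 highest as in Itga9. Pdpn, the fifth marker, rose from 924 ± 35.3 to 1028 ± 8.14. Neither trait was particular to lymphatic markers. CSE-KO 1 was also the highest CSE-KO library in the general endothelial markers Kdr, Tek, Tie1, Erg and Cdh5, but not in Pecam1 or Emcn. Log2 fold changes were −1.57 for Tek, −1.13 for Kdr and −0.08 for Cdh5. Among the lymphatic markers they were −2.60 for Reln, −1.78 for Prox1, −1.09 for Flt4 and −0.98 for Lyve1. In bulk RNA, fewer cells of a type and less RNA per cell cannot be told apart. The part of lymphatic endothelial cells in the falls of Itga9 and Itga1 was not tested.

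Markers of several other cell types moved with the rises of Itga7 and Itga2. The shares over all tested genes, 38.3% higher and 39.0% lower, apply to these counts as well. Of 6 tested mural markers 3 rose and 2 fell, with a summed value of 372 to 409 in WT and 821 to 934 in CSE-KO. Among them Des, the intermediate filament gene of muscle, rose from 14.0 ± 1.00 to 179 ± 32.7, whereas Cspg4, the pericyte proteoglycan NG2, fell from 23 ± 1.00 to 2.00 ± 1.00. All 4 tested mesothelial markers rose (summed value of the 5 listed 191 to 192 in WT and 628 to 719 in CSE-KO), and Msln was at 1, 4 and 3 in WT against 52, 51 and 60 in CSE-KO. Of the 9 macrophage markers 8 rose and Cd14 fell, with sums of 921 to 952 and 1248 to 1408, and Adgre1 and Ptprc were listed at 0 in every WT library. Cd14 made up most of the WT sum, at 788, 775 and 775 in WT against 315, 216 and 187 in CSE-KO. Of 4 platelet markers in the table the 3 tested rose (sums 61 to 73 and 133 to 148), Itga2b among them. Gp9, too low to be tested, went the other way, at 7, 4 and 2 in WT against 1, 1 and 0 in CSE-KO. Of 5 tested fibroblast markers 1 rose and 1 fell, with sums of 1168 to 1267 and 1128 to 1463. The 3 epithelial markers in the table summed to 7 to 21 in WT and 18 to 24 in CSE-KO. Several of these markers were under 10 in every WT library, passed the filter only through CSE-KO and could be called only as rises. They were Wt1, Msln, Upk3b, Adgre1, Ptprc, C1qa, Tyrobp, Csf1r, Mpeg1 and Ppbp. The mural marker Myh11, a rise from 7, 6 and 12 in WT to 14, 18 and 26 in CSE-KO, also passed only through CSE-KO. Cspg4 was under 10 in every CSE-KO library and could be called only as a fall. The part of these cell types in the rises of Itga7 and Itga2 was not tested.

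**Figure D2:**
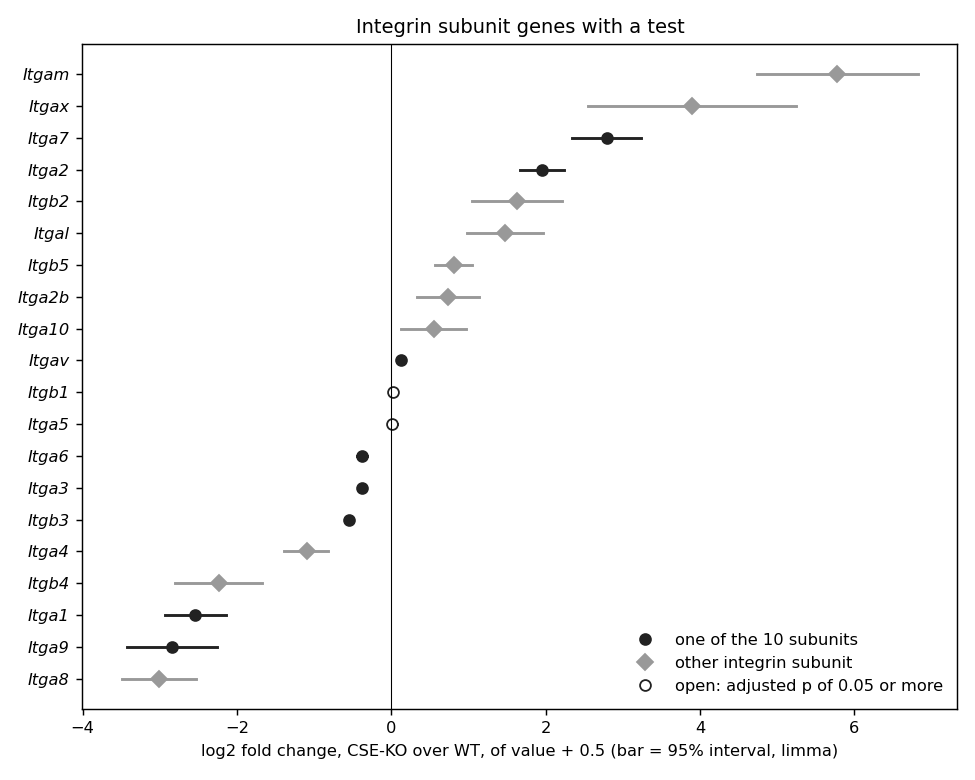
Log2 fold change (horizontal axis, CSE-KO over WT, of value + 0.5) of the 10 integrin subunit genes (black circles) and of the 10 other integrin subunit genes with a test (grey diamonds). Bars are 95% intervals from limma, hidden by the symbol where short, and open symbols did not pass. Itga9 at −2.84 and Itga7 at 2.79 are the ends of the 10 genes, and the value of Itgam, listed at 0 in WT, depends on the added 0.5.

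Levels of different subunits were compared per kilobase of exonic length. In WT the order from high to low was Itgb1 (562 ± 17.2), Itga3 (560 ± 6.63), Itgb3 (470 ± 4.87), Itga5 (401 ± 3.87), Itga6 (306 ± 2.56), Itgav (177 ± 2.7), Itga9 (97.7 ± 2.31), Itga1 (32.9 ± 1.10), Itga2 (5.33 ± 0.701) and Itga7 (2.31 ± 0.681). Only Itgb1 and Itga3 overlapped as neighbours in that order. In CSE-KO the order was Itgb1 (570 ± 6.02), Itga3 (430 ± 10.8), Itga5 (403 ± 14.6), Itgb3 (321 ± 5.85), Itga6 (235 ± 8.32), Itgav (195 ± 1.78), Itga2 (20.7 ± 1.56), Itga7 (15.9 ± 1.24), Itga9 (14.0 ± 4.37) and Itga1 (5.74 ± 1.38), where only Itga7 and Itga9 overlapped. Itga5 thus stood above Itgb3 in CSE-KO and below it in WT. The order rests on the union of annotated exons. By the longest transcript Itga6 was at 641 per kilobase in WT, above Itgb1 at 601 and just below Itga3 at 658. In CSE-KO, by that length, Itga6 at 493 stood above Itga5 at 451 and Itgb3 at 328, and Itga7 at 32 above Itga2 at 20.8. No tested gene in the table exceeded 0.843 per exonic base, and Itgb1 and Itga3 lay at 0.562 and 0.560. Where reads with the same start are counted once, levels per base have a ceiling. Whether that was done here is not given in the sources used, and a correction for it is among the alternatives.

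In CSE-KO the RGD-binding chains Itga5 and Itgav held a larger share of the 8 alpha chains and the laminin-binding chains and Itga9 a smaller share. Itga5 made up 25.3% ± 0.0699 (SD, n = 3) of the summed level of the 8 alpha chains per kilobase in WT and 30.6% ± 1.2 in CSE-KO, and Itgav 11.2% ± 0.0619 and 14.7% ± 0.142. Itga3 went from 35.4% ± 0.132 to 32.6% ± 0.483, Itga6 from 19.3% ± 0.219 to 17.8% ± 0.517 and Itga9 from 6.17% ± 0.102 to 1.06% ± 0.319. The shares of the rare chains were 2.08% and 0.434% for Itga1, 0.337% and 1.57% for Itga2, and 0.146% and 1.21% for Itga7. In all 8 chains the CSE-KO shares lay outside the WT range, and the exact permutation test gave p = 0.1 for each (two-sided, 8 comparisons, adjusted p = 0.1), the smallest that 3 against 3 libraries allow. By group, the laminin-binding chains summed to 868 ± 8.13 per kilobase in WT and 681 ± 18.1 in CSE-KO, and Itga5 and Itgav to 578 ± 6.47 and 598 ± 13.4. The higher share of Itga5 thus came with a level that did not pass the test and a smaller sum over the 8 chains (1582 ± 15.4 in WT and 1319 ± 18.5 in CSE-KO). With the longest transcript as length, the share of Itga6 was 29.3% in WT and 27.0% in CSE-KO.

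**Figure D3:**
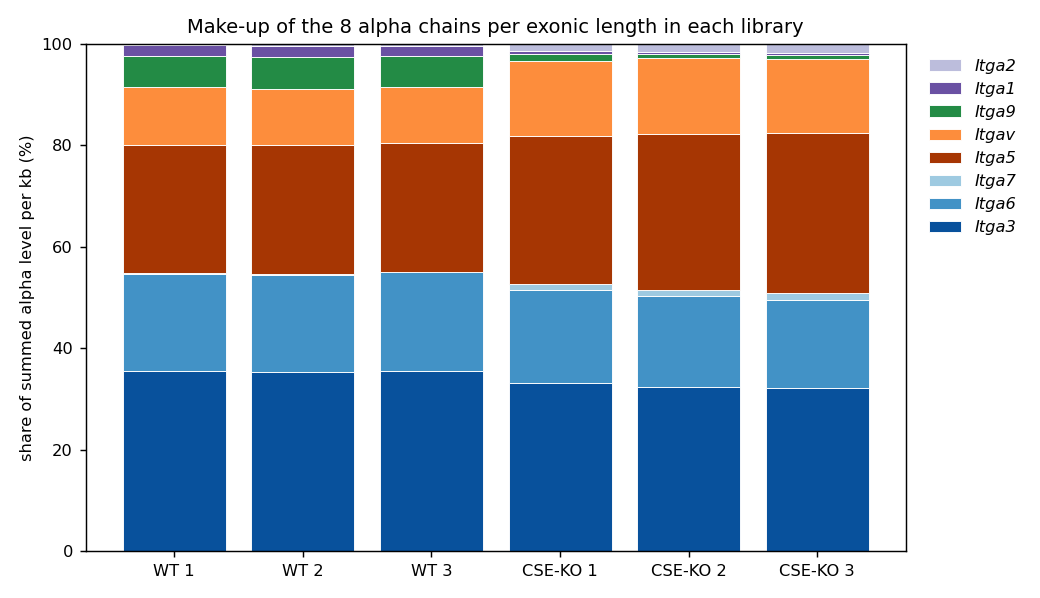
Share (vertical axis, percent) of each alpha chain gene in the summed level per kilobase of the 8 alpha chain genes, in each library. Blue marks laminin-binding, orange RGD-binding, green Itga9 and purple collagen-binding chains, and the orange bands are wider and the green band narrower in the 3 CSE-KO libraries.

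Of 17 other integrin subunit genes, 14 were in the table and 10 were tested, of which 7 rose and 3 fell, where 77.4% of all tested genes were called, 38.3% higher and 39.0% lower. Itgam and Itgax were under 10 in every WT library, so they passed the filter only through CSE-KO and could only rise. With both included, the median log2 fold change of the 10 tested genes was 0.77. This median lies between Itga2b and Itgb5 and does not depend on the fitted value of Itgam. Itgb4, the beta chain that pairs only with alpha6 and forms the laminin receptor of hemidesmosomes, was at 1153, 1203 and 1278 in WT against 343, 209 and 233 in CSE-KO. CSE-KO 1 again lay nearest to WT. Its log2 fold change was −2.24 (limma, SE 0.21, adjusted p = 5.1e-04), and that of its partner Itga6 −0.38. Itga8, whose product pairs with beta1 and binds RGD ligands such as nephronectin, was at 275, 328 and 313 against 53, 30 and 33 (log2 fold change −3.01, SE 0.20). This RGD-binding chain is not among the 8 alpha chains of the shares above. Per kilobase it went from 41.4 ± 3.71 in WT to 5.25 ± 1.7 in CSE-KO. Itga4, the VCAM1 receptor chain, fell from 235 ± 22.2 to 110 ± 18.7. Itgb5, another partner of alphav, rose from 62.7 ± 2.52 to 111 ± 11 (log2 fold change 0.81, SE 0.11), while Itgb3 fell. Per kilobase, Itgb5 reached 31.1 in CSE-KO, where Itgb3 stood at 321. Itga2b, the platelet partner of beta3, rose from 30.3 ± 4.04 to 51 ± 9.0 and Itga10, a collagen receptor chain, from 27.3 ± 5.69 to 39.7 ± 1.2.

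The leukocyte integrins rose from low levels. Itgam was listed at 0 in each WT library and was at 26, 28 and 27 in CSE-KO, Itgax was at 0, 2 and 2 against 24, 21 and 19, and Itgal at 14, 19 and 13 against 36, 52 and 42. Their shared beta chain Itgb2 was at 27, 17 and 36 against 66, 88 and 88. The 4 genes were apart between the groups, which the filter already required of Itgam and Itgax. The macrophage markers given above moved in the same libraries. The part of macrophages in these rises was not tested. Itga11, Itgae, Itgb6 and Itgb7 had too low values to be tested, with means of at most 6.67 in either group.

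Of the genes for matrix ligands of these receptors, those of collagens fell or were not called, and those of laminins moved in both directions. For the counts here and in the lists that follow, 38.3% of all tested genes were called higher and 39.0% lower. Of 12 tested collagen genes 8 fell and 0 rose (median log2 fold change −0.66). The basement membrane collagens Col4a1 and Col4a2 fell from 5149 ± 78.8 to 4150 ± 109 and from 4763 ± 58.3 to 3865 ± 68.8, and Col4a5 and Col5a1 fell more (log2 fold change −1.49 and −1.31). Of 9 tested laminin chains 5 fell and 3 rose (median −0.26). Of the 3 rises, Lamb3 and Lamc3 were under 10 in every WT library and passed the filter only through CSE-KO. The abundant gamma chain Lamc1 fell from 4015 ± 47.2 to 2551 ± 94.2 and the endothelial alpha chain Lama4 from 3169 ± 59.3 to 2619 ± 83.8, and Lama5 and Lamb2 fell too (−0.95 and −0.40). These falls came with lower Itga3 and Itga6.

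Genes of RGD ligands moved in both directions. Of 10 tested, 5 rose and 2 fell (median 0.23). Fibronectin, Fn1, the ligand of alpha5/beta1, had means of 7521 ± 184 and 7743 ± 83.5, a difference that missed the threshold (log2 fold change 0.04, adjusted p = 0.058). Ltbp1, which anchors latent TGF-beta, rose from 1084 ± 35.1 to 1812 ± 39.8, and Tgfb1, whose latent form alphav integrins bind, fell from 1387 ± 17.3 to 812 ± 55.8. The other fall, of Fbn1, was the largest change among the 10, from 2006 ± 19.7 to 530 ± 75.1 (log2 fold change −1.93). Thbs1 and Ccn2, both matricellular proteins, rose by log2 fold changes of 0.24 and 0.30. Among 4 tested ligands of alpha9, Emilin1 fell from 1622 ± 16.1 to 465 ± 94.6, Tnc (tenascin-C) from 5898 ± 118 to 4918 ± 94.2 and Adam15 from 1235 ± 13.2 to 1012 ± 19.4, while Vegfc rose from 22.7 ± 3.06 to 164 ± 9.64. Of these 4 genes 3 thus fell with Itga9 and Vegfc rose, while Fn1, which the list leaves out and whose extra domain A alpha9 binds, did not pass as given above.

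**Figure D4:**
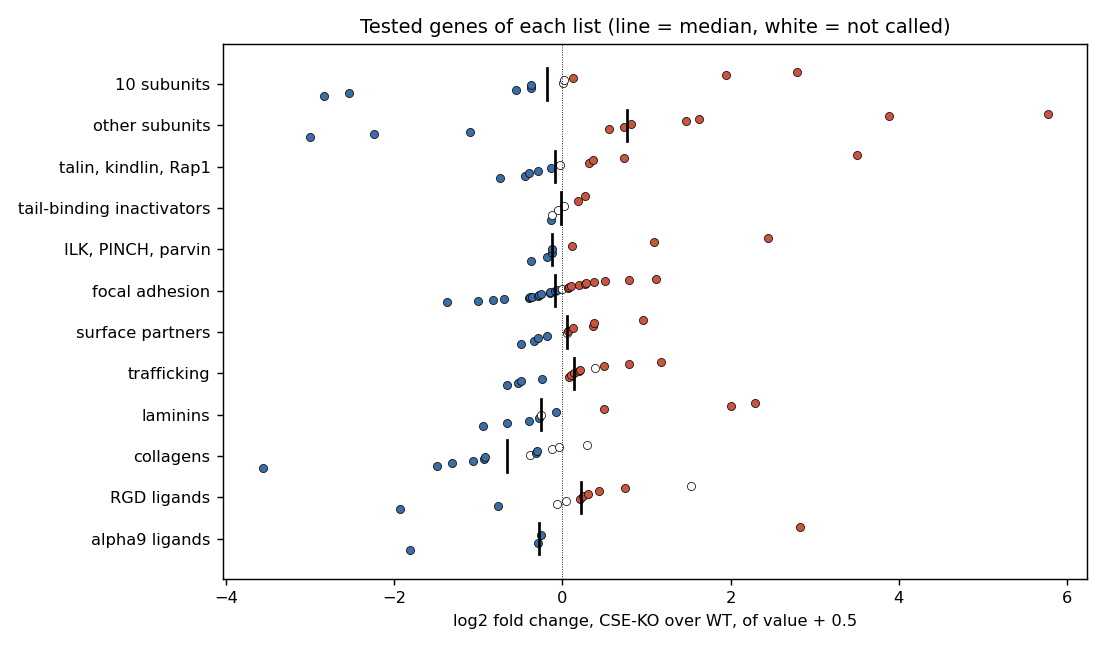
Log2 fold change (horizontal axis, CSE-KO over WT, of value + 0.5) of every tested gene in 12 lists of integrin biology. Points are genes, red higher and blue lower at an adjusted p under 0.05 and white not called, and the line is the list median. Collagens have the lowest median, at −0.66, and the other subunits the highest, at 0.77. The other subunits include Itgam and Itgax, which passed the filter on low values only through CSE-KO.

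The machinery that switches integrins on and couples them to actin moved in both directions. Of 10 tested genes of talin, kindlin and the Rap1 branch, 4 rose and 5 fell (median −0.08). Talin 1, Tln1, which binds the beta tail, fell from 4333 ± 88.0 to 3944 ± 40.7, and the kindlin gene Fermt2 rose from 1112 ± 10.1 to 1431 ± 13.0. The Rap1 exchange factor gene Rapgef2 rose from 660 ± 20.4 to 1092 ± 28.8 and Rapgef1 fell from 2120 ± 18.6 to 1553 ± 56.6. The blood cell kindlin Fermt3 rose from 12 ± 1.00 to 143 ± 33.7 in the libraries where the macrophage markers rose, and their part in it was not tested. Of 6 genes that hold integrins inactive 2 rose and 1 fell (median −0.02), with Itgb1bp1, which competes with talin for the beta1 tail, going from 274 ± 7.51 to 331 ± 13.3.

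Of 7 ILK, PINCH and parvin genes, 3 rose and 4 fell (median −0.12). Among the rises, Parvg was at 8, 10 and 4 in WT against 35, 38 and 47 in CSE-KO. It passed the filter on low values only through CSE-KO. Lims1, the main PINCH adaptor, fell from 1555 ± 49.3 to 1191 ± 12.1, and Ilk rose from 729 ± 4.58 to 787 ± 16.7. Of 25 focal adhesion genes, 10 rose and 14 fell (median −0.09). The tyrosine kinase Src was at 607, 604 and 610 in WT against 1266, 1330 and 1349 in CSE-KO, more than 2-fold higher in each CSE-KO library. Its log2 fold change was 1.11 (SE 0.03, adjusted p = 2.7e-10). Dock1, the exchange factor that activates Rac below p130Cas, fell from 1722 ± 12.3 to 863 ± 32.6, and Arhgef7, beta-PIX, from 2272 ± 75.8 to 1282 ± 55.2. The actin linker Tns3 rose from 1270 ± 53.9 to 2196 ± 59.1.

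Partners in the membrane and on the recycling route were mixed as well. Of 10 surface partners 5 rose and 4 fell (median 0.05). Slc3a2, the CD98 heavy chain that binds the beta1 tail and also carries amino acid transporters, rose from 644 ± 15.9 to 1250 ± 31.2. Cd47, which associates with alphav/beta3, fell from 1719 ± 18.0 to 1223 ± 23, and Cd151, a tetraspanin that binds laminin receptors, from 924 ± 35.8 to 732 ± 17.3. Of 13 trafficking genes 8 rose and 4 fell (median 0.14). The endocytic adaptor Dab2 fell from 1546 ± 17.3 to 979 ± 66.5, and Snx17, which returns beta1 to the surface, from 610 ± 7.0 to 424 ± 26.0. Rab5a, a GTPase of early endosomes, rose from 469 ± 12.7 to 659 ± 29.2, and Rab11a, of recycling endosomes, fell from 745 ± 4.36 to 531 ± 32.3.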

How the data were processed

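The deposited table gave whole-number values per gene and library, treated here as a score, most likely counts divided by size factors and rounded. No header or label states the unit. Recomputed size factors were 1.003 to 1.008. The submitters' processing notes name build mm10 and, with no roles, DESeq2 1.26.0, featureCounts 1.6.5, Picard 2.21.7, STAR 2.7.3a and Trimmomatic 0.39. Genes at 10 or more in at least 3 libraries (13750) were fitted with limma 3.58.1 (R 4.3.3) on log2(value + 0.5) by group with trended, robust variances, and adjusted over all of them. The fit was tested on simulated data. Lengths are the union of GENCODE release 21 exons. Level ranges and shares are over libraries.

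The members and lists were chosen with earlier results of these data known. Named were the 10 genes, the other subunits, up to 4 genes per list with the smallest adjusted p, direct partners of the 10 genes, and markers. Alternatives covered pseudocount, filter, scaling, variance model, test, replicates and lost reads.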

Additional observations from a re-analysis of the deposited data

How the results depend on the processing

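Over 20 alternatives per gene, none changed the direction of the 8 called genes, and the leave-out of each library changed no call. With equal totals 5 of the 10 genes were called higher, against 3, because Itga5 (0.08) and Itgb1 (0.09) passed. With upper-quartile scaling Itgb1 (0.07) passed too. Itgav was lost in the test against a fold of 1.2 (adjusted p = 1), and Itga9 with WT 1 to 3 and CSE-KO 2 and 3 each as 1 sample (adjusted p = 0.059). Corrected for reads lost at shared starts, the log2 fold change was −0.71 for Itgb3, −0.55 for Itga3 and −0.45 for Itga6. With the replicate block, 3 genes were higher, 5 lower and 75.9% of tested genes called. Same-numbered libraries did not deviate together (r between −0.000786 and 0.02 across genes), and not every library correlated best with its own number. With 3 libraries per group, leaving 1 out cannot move a mean share per length by 1 SD, so that check could not fail. In the leave-outs of a CSE-KO library, the CSE-KO share of Itga9 ran from 0.872% to 1.16% and that of Itga5 from 30.1% to 31.2%. Shares moved by more than 1 SD in 14 of 16 values with the longest transcript and in 13 of 16 with the correction.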
